A study of Mus musculus with 12 samples.

Results

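Diabetic and healthy mouse hearts were compared at week 5, the last of 3 time points, on 4 of the 12 arrays of a time series in cardiac muscle. Week 5 arrays alone were taken, and the 2 diabetic arrays, sedentary and trained, were set against the 2 healthy arrays, sedentary and trained. Each diabetic array was matched to the healthy array of the same training state. The arrays were chosen by their labels and not by measured values, and the comparison is described over all 12422 probe sets that are not array controls.

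The series studied male NMRI mice, an outbred strain, of 10 to 15 weeks of age. Diabetic mice had received a single injection of streptozotocin (180 mg/kg) and had more than 200 mg/dl of glucose in the urine 72 h later, and healthy mice had received buffer alone. Sedentary mice did not run, and treadmill training was daily for 1 h, 5 days a week, with the belt at 21 m/min on an incline of 2.5 degrees. Hearts of all 4 groups were taken 24 h after the last bout of the trained mice. RNA of the 5 mice of a group was combined on 1 array, so single animals were not measured, and p-values below rest on 2 pairs of pools and on a spread borrowed largely from other probe sets, not on the spread between animals. MG_U74Av2 arrays measure each transcript with 1 or more probe sets, sets of short oligonucleotides summarised into a signal. All values below are such signals, on a linear scale that was set to a common mean per array, or log2 differences between them.

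Streptozotocin kills the insulin-producing beta cells of the pancreas, so the mice lack insulin. Without insulin, fat tissue releases fatty acids and glucose stays in the blood, and a heart that normally burns both comes to burn mainly fatty acids. PPARalpha, a nuclear receptor that fatty acids activate, switches on many genes of their use, and the kinase Pdk4 shuts pyruvate, the end product of glycolysis, out of the mitochondria's fuel supply. Diabetic and overloaded rodent hearts are also known for a return to fetal genes, with slow beta-myosin in place of the fast alpha-myosin and more natriuretic peptide.

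Stretches of 3 promoters are shown because they belong to genes described below that passed and hold a heat shock or a glucocorticoid motif. RefSeq promoters of 300 bases (assembly GRCm38.p6) were found for 19 of 23 genes that were higher and 12 of 13 that were lower in diabetic hearts. The heat shock element, searched on both strands as 3 alternating blocks GAA, TTC and GAA with 2 bases between blocks, was in 0.603% of 32851 promoters, and among these genes in that of Hsph1 alone. The glucocorticoid response element, searched as the blocks ACA and TGT at 3 bases from each other, with a G before and a C after at 1 base of distance, reads the same on both strands and was in 0.475% of promoters, and among these genes in those of Txnip and Serpina3n. Capitals mark the match, and each stretch is written 5′ to 3′ along its gene.
Hsph1, chr5:149636287-149636586, minus strand: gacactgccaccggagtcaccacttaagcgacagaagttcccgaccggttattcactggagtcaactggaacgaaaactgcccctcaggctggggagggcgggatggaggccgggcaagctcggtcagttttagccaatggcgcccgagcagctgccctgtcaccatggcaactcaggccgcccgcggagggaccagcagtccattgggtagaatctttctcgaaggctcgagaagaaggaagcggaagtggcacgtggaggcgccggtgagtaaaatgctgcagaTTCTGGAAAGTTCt
Txnip, chr3:96557707-96558006, plus strand: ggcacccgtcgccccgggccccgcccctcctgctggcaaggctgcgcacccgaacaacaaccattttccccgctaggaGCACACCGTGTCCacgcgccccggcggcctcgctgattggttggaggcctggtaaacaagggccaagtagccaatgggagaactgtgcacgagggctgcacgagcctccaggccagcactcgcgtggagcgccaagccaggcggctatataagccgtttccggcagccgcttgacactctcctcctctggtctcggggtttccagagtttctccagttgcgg
Serpina3n, chr12:104406458-104406757, plus strand: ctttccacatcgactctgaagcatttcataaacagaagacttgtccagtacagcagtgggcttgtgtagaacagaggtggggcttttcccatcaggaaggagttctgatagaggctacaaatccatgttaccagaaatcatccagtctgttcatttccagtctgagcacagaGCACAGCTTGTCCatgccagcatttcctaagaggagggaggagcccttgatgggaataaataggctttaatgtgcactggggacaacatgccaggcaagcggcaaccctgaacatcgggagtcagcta

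The match in Hsph1 began 36 bases after the annotated gene start of the stretch shown, and 15 bases after a second annotated start. That in Txnip began 172 bases before its gene start and that in Serpina3n 78 bases before its own. A PPARalpha element, a direct repeat of AGGTCA with 1 base between, where any base was allowed at the fourth place of the first copy, was in 0.0944% of promoters and in 0 of these genes. The short metal response element (TGCACNC or TGCGCNC, on either strand) was in 25.7% of promoters, in 4 of the 19 and 3 of the 12. It occurred 4 times in that of the metallothionein gene Mt2, and also 4 times each in those of Igfbp3 and Dbp. A match of letters is a description of this window and shows no binding.

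The 4 arrays were alike in signal level. Their median signals were 17.3 and 17.4 for the healthy and 17.9 and 16.6 for the diabetic arrays, the sedentary one first, and the 6 pairs of arrays correlated at r between 0.971 and 0.976. They were run on 1 scan day with 1 chip lot that no other array of the series shared, and since every condition had a fluidics module to itself, the effects of module and condition cannot be told apart. Cardiomyocyte markers were bright on each of them, with summed signals of 19100 and 18300 in healthy and 17100 and 16700 in diabetic hearts. A control for the 3′ part of 18S ribosomal RNA, which reads leftover ribosomal RNA, was at 3809.3 and 2835.5 in healthy and at 1395.3 and 2084.3 in diabetic hearts. The 3′ to 5′ signal ratio of Gapdh, a measure of RNA integrity, was 1.04 and 1.05 in healthy and 1.14 and 1.19 in diabetic hearts. These controls separated the groups, whereas the same ratio for actin did not, at 2.11 and 2.32 in healthy and 2.14 and 2.52 in diabetic hearts. Their part in the differences below was not tested.

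At week 5, diabetic hearts had more transcript of the fuel genes Pdk4, Acot1 and Decr1, of the slow myosin Myh7 and the natriuretic peptides Nppb and Nppa, of the stress and hormone response genes Fkbp5, Mt2 and Txnip, and of the growth factor Ccn2. They had less of the heat shock genes Hspa1b and Hsph1, the collagen chains Col3a1 and Col1a1, skeletal alpha-actin (Acta1) and the capillary water channel Aqp1. In each of the gene lists these belong to, most measured members did not pass. Of 7453 probe sets bright enough to test, 43 (0.577%) passed an adjusted p of 0.05 by limma with Benjamini-Hochberg adjustment. Of these 27 (0.362%) were higher and 16 (0.215%) lower in diabetic hearts, by 1.62- to 4.67-fold and by 1.52- to 3.95-fold. They stood for 36 named genes (23 higher and 13 lower), 1 probe set with several gene symbols and 3 with none.

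In all 43 both diabetic arrays lay on the same side of both healthy arrays, as they did in 15.6% (higher) and 18.7% (lower) of all tested probe sets. The medians of all tested differences were 0.00 in the sedentary pair and -0.05 in the trained pair on the log2 scale. The fit had 1 residual degree of freedom per probe set and took most of its estimate of spread from probe sets of like signal, and an exact permutation test of 2 arrays against 2 cannot go below p = 0.333. Without training state as a block 5 probe sets passed (Pdk4, Ptgds, Myh7, Ccn2 and Cpxm2), and 0 passed without the trend of spread with signal (565 at an unadjusted p under 0.05), without the filter on dim probe sets (797), or without either of the diabetic arrays (831 and 553).

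**Figure D1:**
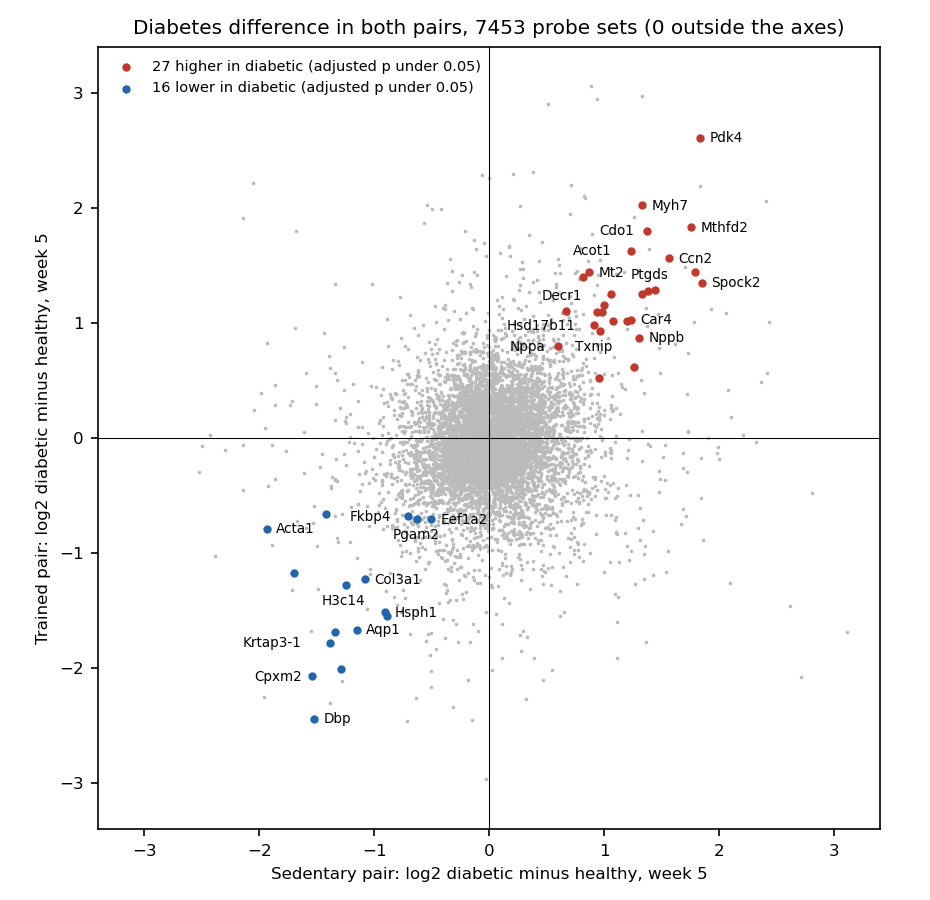
Each point is 1 of 7453 probe sets, with the log2 difference of diabetic minus healthy in the sedentary pair on the x axis and in the trained pair on the y axis, 1 array against 1. The 27 probe sets that passed as higher (red) lie in the upper right and the 16 that passed as lower (blue) in the lower left, while the grey cloud of the rest spreads to both diagonals.

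Pdk4, Acot1 and Decr1, genes of fuel choice and fatty acid use, rose. Pdk4, the kinase that shuts off pyruvate dehydrogenase, read 458.8 and 299.4 in healthy and 1636.8 and 1831.7 in diabetic hearts, in the same order as above, sedentary before trained. The lowest diabetic signal was thus far above the highest healthy one. Pdk4 was 4.67-fold higher (log2 difference 2.22, SE 0.17, adjusted p = 0.000805 by limma), by 1.83 in the sedentary and 2.61 in the trained pair. Acot1, a cytosolic enzyme that frees fatty acids from coenzyme A, read 30.9 and 28.7 in healthy and 72.6 and 88.8 in diabetic hearts. The groups did not overlap, and Acot1 rose by 1.43 (SE 0.21, adjusted p = 0.0229). Decr1, a mitochondrial reductase needed to burn unsaturated fatty acids, read 316.1 and 317.8 in healthy and 500.8 and 682.8 in diabetic hearts, and rose by 0.88 (SE 0.14, adjusted p = 0.0354). Here the healthy arrays were nearly equal and the diabetic trained array was the highest.

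Pdk4 and Acot1 were the 2 of 10 measured PPARalpha and fasting-response genes that passed, 0 fell and 8 did not pass. The median difference of the list was 0.68, against -0.02 over all tested probe sets. Ucp3, a mitochondrial carrier related to uncoupling proteins, read 28.7 and 18.2 in healthy and 55.2 and 48.7 in diabetic hearts (1.18, SE 0.23, adjusted p = 0.0753). Angptl4, a secreted inhibitor of lipoprotein lipase, differed by 1.37 in the sedentary and 0.97 in the trained pair (1.17 over both, SE 0.24, adjusted p = 0.0845). Both stood apart between the groups without passing. Diabetic signals lay above healthy ones without overlap in 15.6% of all tested probe sets.

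Among the 16 mitochondrial beta-oxidation genes Decr1 alone passed, with a list median of 0.21, and 14 of the 16 were above 0. Ech1 and Eci1, isomerases that move double bonds so that unsaturated chains can be burned, differed by 0.42 (SE 0.09, adjusted p = 0.112) and 0.48 (SE 0.11, adjusted p = 0.13). None of 10 fatty acid uptake and activation genes passed (median 0.21). In that list Cd36, the main fatty acid transporter of the heart, read 132.4 and 185.0 in healthy and 189.1 and 364.8 in diabetic hearts (0.75, SE 0.16, adjusted p = 0.125), where the diabetic sedentary array was hardly above the healthy trained one. Dbi, an acyl-CoA binding protein, differed by 0.55 (SE 0.13, adjusted p = 0.146). Of the 3 ketone and acetate genes, Acss1, a mitochondrial acetyl-CoA synthetase, differed by 0.58 (adjusted p = 0.146) and Oxct1, the first enzyme of ketone body use, by -0.46 (adjusted p = 0.184).

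Plin4 and Hsd17b11, whose proteins sit on lipid droplets, rose; they were in no list and are named here after their values were seen. Plin4, a lipid droplet coat protein, read 68.7 and 46.1 in healthy and 131.1 and 98.5 in diabetic hearts (1.01, SE 0.18). Hsd17b11, a droplet-bound dehydrogenase, read 91.7 and 90.9 against 172.2 and 179.5 (0.95, SE 0.16). In neither gene did the groups overlap. The droplet proteins Plin2 (0.32, adjusted p = 0.638) and Cidea (0.60, adjusted p = 0.379) of the PPARalpha list did not pass. Of 10 lipogenic genes 0 passed (median -0.21). The largest were Lpin1, a phosphatidate phosphatase (-0.65, adjusted p = 0.183), Scd2, a fatty acid desaturase (-0.64, adjusted p = 0.223), and Thrsp, a regulator of lipogenesis (-0.63, adjusted p = 0.262).

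Adipocyte markers were looked at beside these genes. Of the 13 listed, 10 were on the array, 7 of these were bright enough to test and 0 passed, with a median of 0.34. Their summed signals were 2580 and 2590 in healthy and 2560 and 2950 in diabetic hearts, of which Lpl, also made by heart muscle, was most. Adipoq, the fat cell hormone adiponectin, read 13.2 and 13.4 in healthy and 23.3 and 57.7 in diabetic hearts (1.46, SE 0.34, adjusted p = 0.139). Lipe, hormone-sensitive lipase, differed by 0.76 (adjusted p = 0.223) and Fabp4, a fat cell fatty acid carrier, by 0.57 (adjusted p = 0.379). Adipoq was highest on the diabetic trained array and near the limit of detection on the healthy ones, where the brightest bacterial or yeast control probe set read 13.3. The part of fat cells in the lipid genes was not tested, and in pooled tissue fewer cells of a type and less RNA per cell cannot be told apart.

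In glucose use 1 glycolytic enzyme fell. Pgam2, the muscle form of the glycolytic enzyme phosphoglycerate mutase, read 954.3 and 892.8 in healthy and 616.9 and 548.4 in diabetic hearts. It fell by 0.67 (SE 0.11, adjusted p = 0.0394) and was the 1 of 24 genes of glucose uptake, glycolysis and glycogen that passed. The list median was -0.19, with 19 genes under 0. Eno3, muscle enolase, the next enzyme of the pathway, read 1565.7 and 1520.8 against 1081.3 and 1027.0 (-0.55, SE 0.10, adjusted p = 0.055). Fbp2, muscle fructose bisphosphatase, which runs against glycolysis, read 18.0 and 18.8 in healthy and 40.6 and 51.0 in diabetic hearts (1.31, SE 0.24, adjusted p = 0.0534). Neither passed. Their groups did not overlap, which was so in 15.6% (higher) and 18.7% (lower) of all tested probe sets.

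In the pyruvate dehydrogenase list of 6 genes, Pdk4 alone passed. Pdk1, a second kinase of the complex, differed by 0.33 (adjusted p = 0.63) and Pdhb, a subunit of its first enzyme, by -0.30 (adjusted p = 0.442). Gfpt2, an isoform of the enzyme that opens the hexosamine pathway from glycolysis, read 58.6 and 56.3 in healthy and 115.9 and 120.1 in diabetic hearts and rose by 1.04 (SE 0.18). Its arrays were close within each group. Gfpt2 was outside the naming rule and was picked after its values were seen.

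Igfbp3, a carrier that binds insulin-like growth factors, was the 1 of 15 insulin and IGF signalling genes that passed. It read 18.4 and 29.1 in healthy and 48.0 and 70.7 in diabetic hearts (1.33, SE 0.22, adjusted p = 0.0354). A second Igfbp3 probe set differed by 0.19 (SE 0.41) and overlapped between the groups, so the rise rests on 1 of 2 probe sets. Foxo3, a transcription factor that insulin holds back, differed by 0.45 (adjusted p = 0.424).

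**Figure D2:**
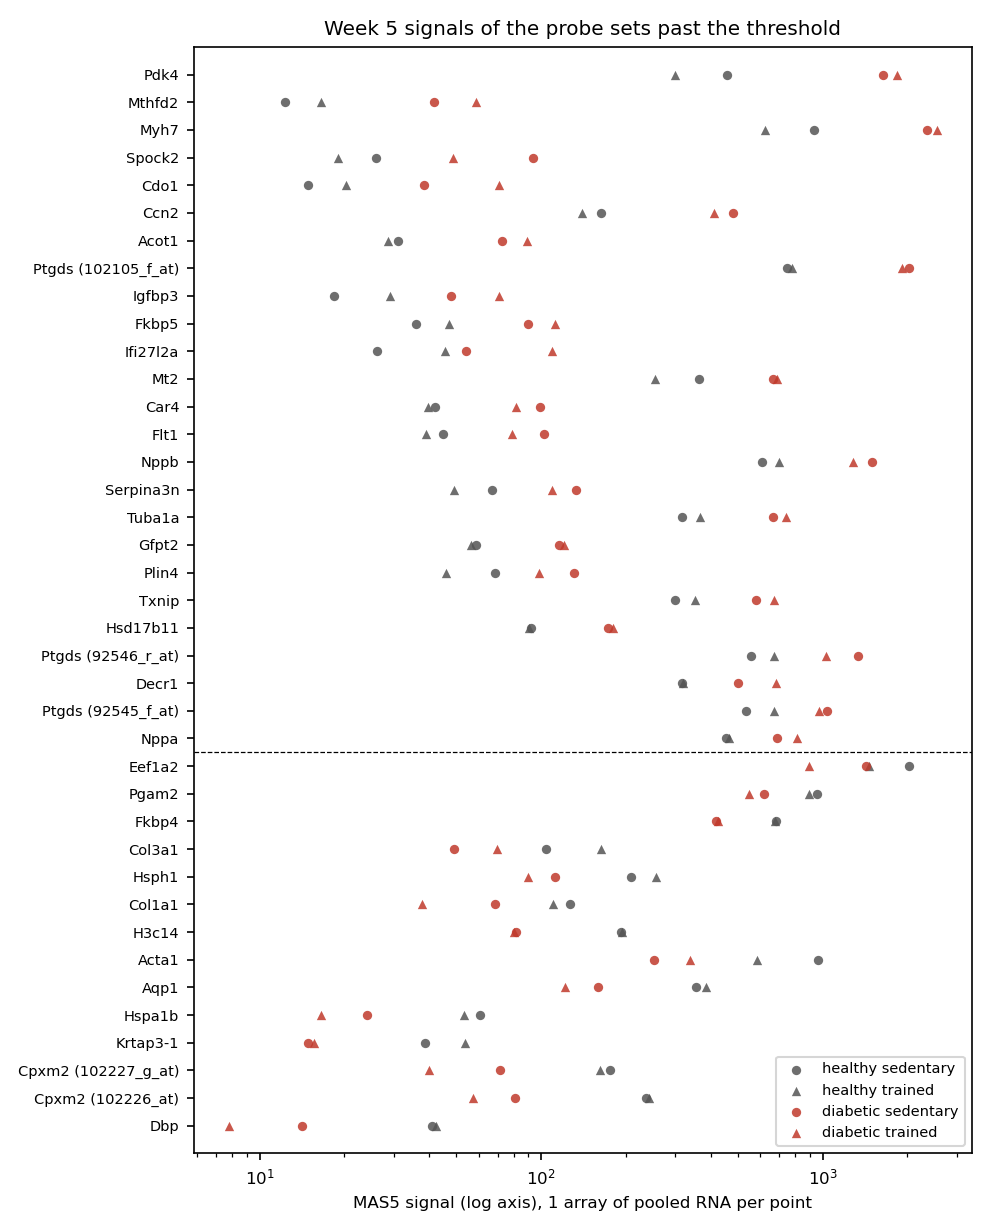
Signals at week 5 of the 39 probe sets that passed and have 1 gene symbol, on a log axis, 1 point per array; grey is healthy and red is diabetic, circles are sedentary and triangles trained. Rows above the dashed line were higher and rows below it lower in diabetic hearts, and in each row both red points lie on 1 side of both grey points.

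Of the fetal heart list, a myosin and both natriuretic peptides rose. Myh7, the slow beta-myosin heavy chain, read 934.9 and 624.3 in healthy and 2348.4 and 2539.5 in diabetic hearts. Diabetic signals were far above healthy ones, and Myh7 was 3.20-fold higher (1.68, SE 0.15, adjusted p = 0.00161). A second, dimmer Myh7 probe set read 13.8 and 22.1 against 38.4 and 38.1 (1.13, SE 0.27, adjusted p = 0.149). Both Myh7 probe sets are of a type that can share probes with related genes. Myh6, the alpha-myosin it replaces, read 3978.5 and 3816.3 in healthy and 3133.1 and 3076.9 in diabetic hearts (-0.33, SE 0.08, adjusted p = 0.178). The groups stood apart in Myh6 too, by a small amount that did not pass. Diabetic signals lay below healthy ones without overlap in 18.7% of all tested probe sets.

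Both natriuretic peptides, hormones the heart secretes under load, rose. Nppb (BNP) read 610.0 and 701.6 in healthy and 1502.8 and 1283.6 in diabetic hearts (1.09, SE 0.13, adjusted p = 0.0087). Nppa (ANP) read 453.8 and 464.7 against 685.8 and 808.4 (0.70, SE 0.12, adjusted p = 0.0443). Nppa is also an atrial marker, and the atrial light chains Myl4 and Myl7 differed by -0.23 (adjusted p = 0.609) and -0.22 (adjusted p = 0.555). Summed atrial and conduction markers were 2700 and 2850 in healthy and 2480 and 3000 in diabetic hearts, and thus overlapped.

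Acta1, skeletal alpha-actin, which the fetal heart also makes, went the other way. It read 959.6 and 582.9 in healthy and 251.1 and 336.9 in diabetic hearts and fell by 1.36 (SE 0.22, adjusted p = 0.0354), by 1.93 in the sedentary and 0.79 in the trained pair. The healthy sedentary array was the highest. Acta1 was also the 1 of 8 skeletal muscle markers that passed, and the list's summed signal of 1710 and 1220 in healthy and 736 and 967 in diabetic hearts was mostly its own and that of Ckm. Of the 15 fetal heart genes 3 rose, 1 fell and 11 did not pass, with a median of -0.13.

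None of the 16 adult sarcomere genes passed (median -0.12). Ckm, the muscle creatine kinase, read 519.5 and 464.8 in healthy and 307.6 and 327.0 in diabetic hearts (-0.63, SE 0.13, adjusted p = 0.11). Myom2, a protein of the M-line, read 289.6 and 175.6 against 320.7 and 466.8 (0.78, adjusted p = 0.283). None of 18 calcium handling genes passed either (median -0.12). Its largest value was that of Camk2b, a calmodulin-dependent kinase, at 27.7 and 24.6 in healthy and 11.4 and 5.7 in diabetic hearts (-1.70, SE 0.37, adjusted p = 0.125), where both diabetic signals lay under the brightest bacterial or yeast control. Of 13 ion channel and connexin genes 0 passed, and Kcnd2, a transient outward potassium channel, differed by -0.80 (adjusted p = 0.211).

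Of matrix genes, Ccn2 rose and the collagen chains Col3a1 and Col1a1 fell. Ccn2 (CTGF), a matricellular factor that promotes fibrosis, read 162.8 and 139.4 in healthy and 479.6 and 412.0 in diabetic hearts. It was 2.95-fold higher (1.56, SE 0.14, adjusted p = 0.00161), equally in the sedentary (1.56) and the trained pair (1.56). Col3a1, the chain of type III collagen, read 104.1 and 163.5 in healthy and 49.2 and 69.9 in diabetic hearts and fell by 1.15 (SE 0.18, adjusted p = 0.0271). Col1a1, a chain of type I collagen, read 126.7 and 110.0 against 68.5 and 37.6 and fell by 1.22 (SE 0.21, adjusted p = 0.0394). In both collagens all healthy signals were above all diabetic ones. A second Col3a1 probe set differed by -1.52 (adjusted p = 0.139) and a second Col1a1 probe set by -0.40 (adjusted p = 0.549).

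Col3a1 and Col1a1 were the 2 of 14 collagen genes that passed, and the list median was -0.41, with 12 genes under 0. Col1a2, the partner chain of Col1a1 in type I collagen, differed by 0.16 (adjusted p = 0.843). Col15a1, a basement membrane zone collagen, differed by -1.10 (adjusted p = 0.15) and Col6a2, a microfibril collagen, by -0.58 (adjusted p = 0.446). Of 23 other matrix genes 0 passed (median 0.04). P4ha1 and P4ha2, hydroxylases that make collagen chains stable, differed by -0.76 (adjusted p = 0.216) and -0.71 (adjusted p = 0.214). Lox, which crosslinks collagen, differed by 1.07 (adjusted p = 0.321) and Thbs2, a thrombospondin of the matrix, by 0.94 (adjusted p = 0.154). The Lox signals were dim, at 7.1 and 13.8 in healthy and 16.3 and 26.6 in diabetic hearts. The brightest bacterial or yeast control read 13.3, so the size of the Lox difference is uncertain.

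Ccn2 was the 1 of 17 genes of matrix proteases, their inhibitors and TGF-beta that passed. Mmp14, a membrane collagenase, differed by 0.70 (adjusted p = 0.183) and Ltbp4, a binder of latent TGF-beta, by -0.89 (adjusted p = 0.154). Spock2, a proteoglycan of the matrix, read 26.0 and 19.0 in healthy and 93.9 and 48.5 in diabetic hearts and rose by 1.60 (SE 0.23, adjusted p = 0.0204). Cpxm2, a secreted carboxypeptidase-like protein, read 235.2 and 241.8 in healthy and 80.9 and 57.5 in diabetic hearts. It fell by 1.81 (SE 0.18, adjusted p = 0.00375), and a second Cpxm2 probe set fell by 1.65 (SE 0.21, adjusted p = 0.0133).

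Fibroblast markers were read beside the collagens. Of 12 measured, Col1a1 and Col3a1 passed, and the median was 0.09. Their summed signals were 3590 and 3830 in healthy and 3710 and 3980 in diabetic hearts, overlapping, with Dcn, the proteoglycan decorin, as most of the sum. S100a4, a calcium-binding protein of fibroblasts and leukocytes, read 26.3 and 34.2 against 46.9 and 145.2 (1.46, SE 0.28, adjusted p = 0.0671), with the diabetic trained array far above the rest.

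Of genes that glucocorticoids induce, a chaperone partner and a metallothionein rose. Fkbp5, an Hsp90 co-chaperone that glucocorticoids induce strongly, read 35.8 and 47.0 in healthy and 89.7 and 111.7 in diabetic hearts (1.29, SE 0.19, adjusted p = 0.0229). Mt2, a metal-binding metallothionein, read 364.1 and 253.3 against 663.8 and 688.6 (1.16, SE 0.16, adjusted p = 0.0166). The groups did not overlap in either gene. These were the 2 of 18 genes of the glucocorticoid and FoxO response list that passed, and the list median was 0.43, with 15 genes above 0. Cebpd, a transcription factor, differed by 0.71 (adjusted p = 0.262) and Gadd45a, a growth arrest gene, by -0.78 (adjusted p = 0.238). Serpina3n, an acute-phase protease inhibitor, read 66.8 and 49.0 in healthy and 133.2 and 109.6 in diabetic hearts (1.08, SE 0.18, adjusted p = 0.0374). It was in no list and outside the naming rule, and its promoter is among those shown above.

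Txnip, which binds thioredoxin and restrains glucose uptake, read 299.1 and 352.8 in healthy and 581.8 and 674.2 in diabetic hearts. It rose by 0.95 (SE 0.12, adjusted p = 0.0163), with near-equal steps in both pairs (0.96 and 0.93). Mt2 and Txnip were the 2 of 28 metallothionein and antioxidant genes that passed (median 0.16). Cat, the peroxide-splitting enzyme catalase, read 119.6 and 121.0 against 200.3 and 241.1 (0.87, SE 0.16, adjusted p = 0.0526). Mt1, the sister gene of Mt2, differed by 0.64 (SE 0.12, adjusted p = 0.0671); it was picked outside the naming rule as that sister.

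Transcripts of 3 heat shock proteins and partners fell. Hspa1b, an inducible Hsp70, read 60.8 and 53.2 in healthy and 24.0 and 16.5 in diabetic hearts, and fell by 1.52 (SE 0.23, adjusted p = 0.0271). Hsph1 (Hsp105), a nucleotide exchange factor for Hsp70, read 209.0 and 255.4 against 111.8 and 89.5 and fell by 1.21 (SE 0.18, adjusted p = 0.0271). In both genes every diabetic signal was under every healthy one. Fkbp4, an Hsp90 co-chaperone that acts on steroid receptors in opposition to Fkbp5, read 682.8 and 678.7 in healthy and 418.6 and 423.2 in diabetic hearts and fell by 0.69 (SE 0.12, adjusted p = 0.041). Arrays of 1 group were close to each other here, but a second Fkbp4 probe set differed by -0.22 (adjusted p = 0.746). The Fkbp4 probe set that passed is, like those of Myh7, of a type that can share probes with related genes.

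These were the 3 of 24 heat shock and co-chaperone genes that passed, 0 rose and 21 did not pass. The list median was -0.12, with 17 genes under 0, and Hspa8, the constitutive Hsp70, differed by 0.00 (adjusted p = 0.995). Hspa1a, the near-identical neighbour of Hspa1b, read 45.2 and 67.6 in healthy and 31.9 and 15.1 in diabetic hearts (-1.33, SE 0.35, adjusted p = 0.18). Because the pair is so alike in sequence, probes may read both genes.

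Among genes of the vessels, Aqp1 fell and single probe sets of Car4 and Flt1 rose. Aqp1, the water channel of capillary endothelium, read 353.7 and 384.7 in healthy and 159.0 and 121.2 in diabetic hearts and fell by 1.41 (SE 0.17, adjusted p = 0.0087). Car4, a carbonic anhydrase on the surface of capillaries and heart muscle, read 42.0 and 39.8 against 98.8 and 81.2 and rose by 1.13 (SE 0.19, adjusted p = 0.0394). Flt1, a receptor of VEGF, read 44.8 and 38.9 against 102.7 and 78.9 and rose by 1.11 (SE 0.19, adjusted p = 0.0394). In all 3 the groups stood apart. Second probe sets did not follow: that of Car4 differed by 0.21 (adjusted p = 0.834), and a brighter Flt1 probe set, which stands for Flt1 in the lists, by -0.17 (adjusted p = 0.884).

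Aqp1 was the 1 of 12 endothelial markers that passed, and the list median was -0.11. Their summed signals were 1760 and 1760 in healthy and 1690 and 1490 in diabetic hearts. Without Aqp1 the sums were 1403.4 and 1375.0 in healthy and 1529.0 and 1365.9 in diabetic hearts and overlapped. Of 24 VEGF and angiogenic genes 0 passed (median -0.12), and Vegfa differed by -0.47 (adjusted p = 0.479). Ace, the angiotensin-converting enzyme of endothelium, differed by -0.72 (adjusted p = 0.366). Ptgds, a prostaglandin D synthase that is secreted as a lipocalin, passed on all 3 of its probe sets. The brightest read 749.8 and 778.9 in healthy and 2033.1 and 1905.7 in diabetic hearts and rose 2.58-fold (1.37, SE 0.11, adjusted p = 0.000805). Arrays within a group were close on this probe set. The other Ptgds probe sets rose by 0.94 (adjusted p = 0.0354 by limma) and 0.74 (adjusted p = 0.047). On these the sedentary pair rose more (1.26 and 0.95) than the trained pair (0.61 and 0.52). The brightest and the last Ptgds probe set are, like those of Myh7, of a type that can share probes with related genes.

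Single genes of other roles also passed. Mthfd2, a mitochondrial enzyme of folate metabolism, read 12.3 and 16.5 in healthy and 41.6 and 58.7 in diabetic hearts (1.79, SE 0.25, adjusted p = 0.0175). Cdo1, which breaks down cysteine on the way to taurine, read 14.8 and 20.3 against 38.3 and 70.8 (1.59, SE 0.24, adjusted p = 0.0271). Both were dim in healthy hearts and clear in diabetic ones. Ifi27l2a, an interferon-inducible gene outside the lists, read 26.1 and 45.6 against 54.3 and 108.9 (1.16, SE 0.20, adjusted p = 0.0394), and its trained array was the higher in each group. Tuba1a, an alpha-tubulin, read 315.3 and 366.7 against 665.1 and 743.2 (1.05, SE 0.12, adjusted p = 0.0087). A second Tuba1a probe set differed by -0.03 (adjusted p = 0.965), and tubulin genes are close enough in sequence to share probes.

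Dbp, a transcription factor driven by the circadian clock, read 40.8 and 42.4 in healthy and 14.2 and 7.8 in diabetic hearts and fell by 1.98 (SE 0.32, adjusted p = 0.0354). The diabetic trained signal was under the brightest bacterial or yeast control, so the size of the fall is uncertain. Dbp was the 1 of 14 clock genes that passed, and the list median was 0.00. Arntl, the clock activator Bmal1, read 13.3 and 9.9 in healthy and 17.7 and 25.7 in diabetic hearts (0.89, SE 0.37, adjusted p = 0.477). Nfil3, a repressor that competes with Dbp for its sites, read 12.7 and 11.2 against 19.0 and 27.8 (0.95, SE 0.34, adjusted p = 0.379). Both values were opposite in sign to that of Dbp and did not pass. The hour at which the mice were killed is not given in the sources used here.

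Krtap3-1, a keratin-associated protein, read 38.7 and 53.5 in healthy and 14.8 and 15.6 in diabetic hearts and fell by 1.58 (SE 0.25, adjusted p = 0.0354). H3c14, a histone H3 gene of a family with near-identical copies, read 192.6 and 194.1 against 81.1 and 80.2 and fell by 1.26 (SE 0.16, adjusted p = 0.0146). Arrays of a group were almost equal in H3c14. Eef1a2, the translation elongation factor form of adult muscle, read 2027.0 and 1455.6 in healthy and 1428.3 and 892.4 in diabetic hearts and fell by 0.61 (SE 0.11, adjusted p = 0.041), although its healthy trained and diabetic sedentary signals nearly met. Ido1, a tryptophan-degrading enzyme, did not pass, at 26.4 and 19.5 against 6.8 and 1.5, the last raised to the floor of 4.1 (-2.10, SE 0.43, adjusted p = 0.0884).

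**Figure D3:**
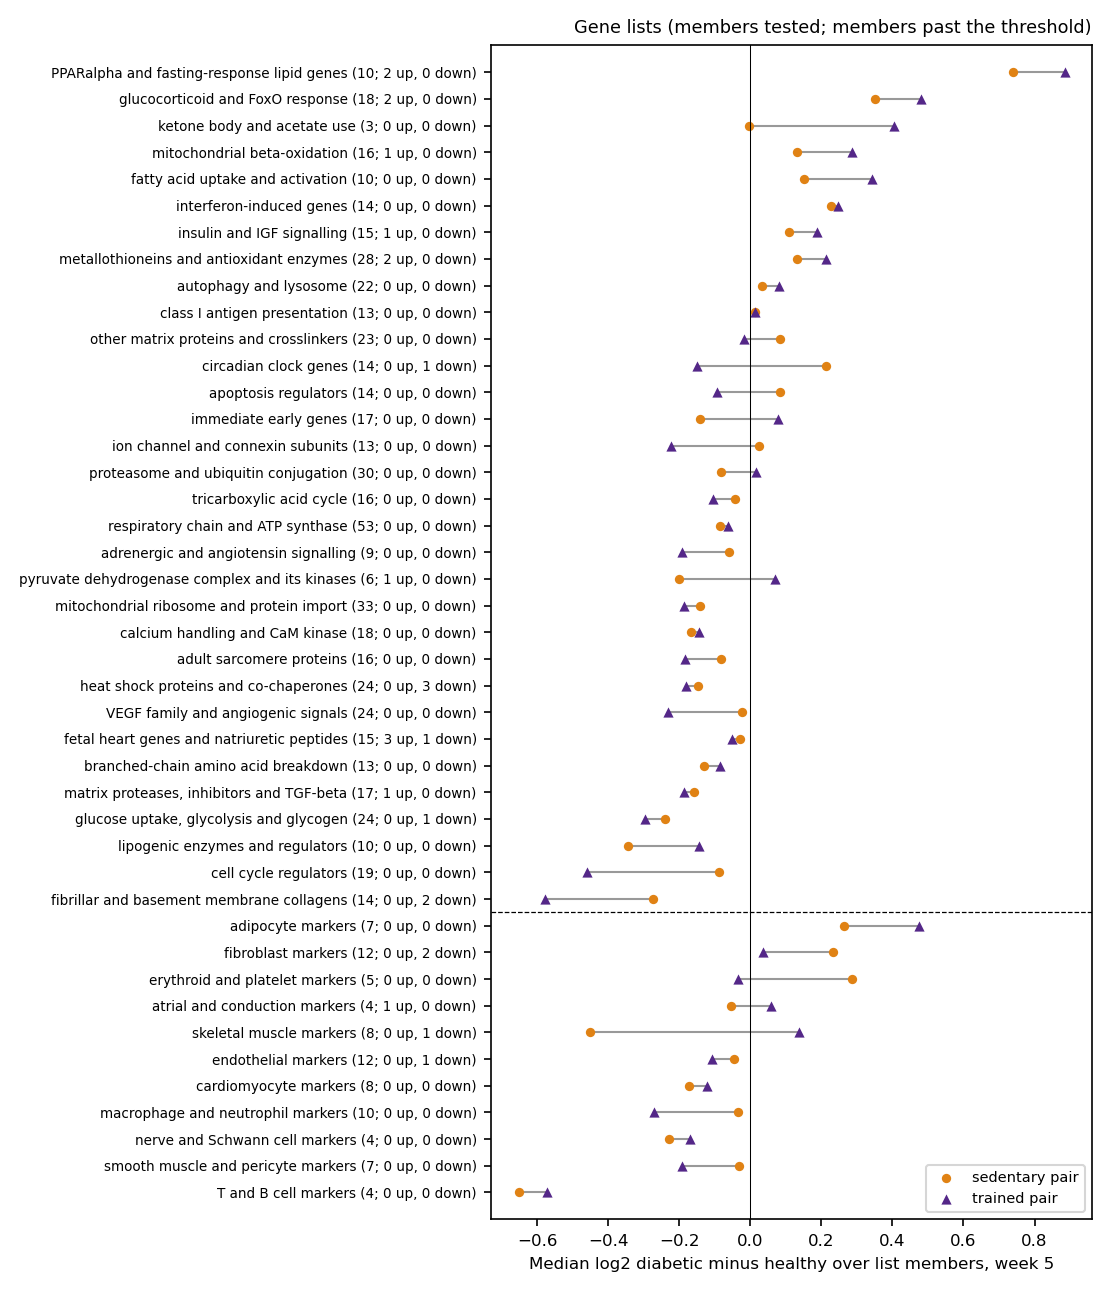
Median log2 difference of diabetic minus healthy at week 5 over the measured members of each gene list with 3 or more of them, in the sedentary pair (orange circles) and the trained pair (purple triangles); cell type markers are under the dashed line. The PPARalpha list lies farthest to the right (0.74 and 0.89). To the left lie the 4 measured T and B cell markers (-0.65 and -0.57), some of them near the limit of detection, and the collagens (-0.28 and -0.58).

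Mitochondria, protein turnover and growth lists held few large values and no calls. None of 53 respiratory chain genes (median -0.07), 16 tricarboxylic acid cycle genes (-0.07), 33 genes of mitochondrial ribosome and import (-0.12) or 30 proteasome genes (-0.04) passed. Ogdh, an enzyme of the tricarboxylic acid cycle, differed by -0.44 (adjusted p = 0.154) and Mrpl45, a mitochondrial ribosomal protein, by -0.69 (adjusted p = 0.17). None of 19 cell cycle genes passed (median -0.24). Ccnd1, cyclin D1, read 93.2 and 125.1 in healthy and 60.0 and 59.8 in diabetic hearts (-0.85, SE 0.19, adjusted p = 0.126). Ccna2, cyclin A2, differed by -1.06 (adjusted p = 0.228) and the cell cycle inhibitor Cdkn1c by -0.71 (adjusted p = 0.15).

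Immune markers did not pass in any list. Of 10 macrophage and neutrophil markers the median was -0.15. Csf1r, the receptor that macrophages depend on, differed by -0.56 (adjusted p = 0.309). The neutrophil genes S100a8 and S100a9 read 10.9 and 5.6, and 5.7 and 4.9, in healthy hearts. In diabetic hearts S100a8 read 12.6 and 27.5 and S100a9 10.9 and 37.7, each highest on the diabetic trained array, which was also the highest for Adipoq and S100a4. The 4 measured T and B cell markers had a median of -0.50. Among them Cd79a, a B cell receptor chain, differed by -0.97 and Ighm, the IgM heavy chain, by -0.58 (adjusted p = 0.379 for both). Cd79a and the T cell marker Cd4 were dim, at 8.8 and 13.7 and at 12.8 and 10.8 in diabetic hearts. The brightest bacterial or yeast control read 13.3, which limits the size of these differences. Smtn, a smooth muscle protein, read 41.7, 44.5 and 40.8 on 3 arrays and 5.7 on the diabetic trained array alone.

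The same comparison at weeks 1 and 3 was set beside that at week 5, since these weeks used other animals. Week 5 differed from weeks 1 and 3 in chip lot, so time and lot cannot be told apart. The diabetic trained array of week 3 stood apart, with a median signal of 25.4 against 16.6 to 20.4 for the other 11 arrays. Of the 43 probe sets, 40 had the same sign in the mean of the 2 pairs of week 1 and 35 in that of week 3, against 59.6% and 58.8% of all tested probe sets. The sedentary pair of week 3 alone had the same sign in 40, against 59.4% of all tested probe sets. In 24 all 4 earlier pairs had the sign of week 5, as did 12.7% of all tested probe sets. Pdk4, for instance, differed by 1.58 at week 1 and 1.45 at week 3, Myh7 by 1.66 and 1.51, Ccn2 by 1.78 and 1.37, Acot1 by 1.28 and 0.90, and Fkbp5 by 1.19 and 1.78. These genes were higher in diabetic hearts of every week.

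The diabetes difference at week 5 minus its mean at weeks 1 and 3 was tested in a fit of all 12 arrays. By limma 0 of 7453 probe sets passed (0%), with 112 at an unadjusted p under 0.05 (0 and 459 without the diabetic trained array of week 3), so no gene below is shown to be particular to week 5. Tuba1a stood at -0.22 and -0.24 in weeks 1 and 3 and 1.05 at week 5, and Krtap3-1 at 0.52 and 0.40 and then -1.58. H2-Oa, a class II chain of B cells, stood at 0.03 and -0.19 and then 1.59, with week 5 signals of 7.2 and 8.3 in healthy and 23.4 and 23.2 in diabetic hearts. Chad, a cartilage matrix protein, and Nacc2, a transcriptional repressor, had week 5 values of 1.20 and 0.52. The other Nacc2 probe sets differed by -0.25 and 0.14 at week 5. At weeks 1 and 3 Chad stood at -1.88 and 0.01 and Nacc2 at -0.22 and -1.96. Scd1, the main fatty acid desaturase, was lower early (-1.51 and -1.10) and stood at -0.22 at week 5.

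The interferon list had its highest median at week 1. Over its 14 measured genes the median was 1.32 at week 1, 0.18 at week 3 and 0.20 at week 5, and none passed at week 5. Gbp3, an interferon-induced GTPase, differed by 2.70 at week 1, 0.87 at week 3 and 0.00 at week 5, where it read 43.7 and 37.2 in healthy and 38.0 and 42.5 in diabetic hearts. Iigp1, a GTPase of the same response, went from 2.34 and 0.94 to 0.21. Ifi35, an interferon-induced binding protein, went from 1.26 and 1.95 to -0.56, and Wars, the interferon-inducible tryptophan tRNA ligase, from 1.31 and 0.44 to -0.52. In Igtp, a GTPase of the list, the value was 3.05 at week 1 and 0.93 at week 5 (adjusted p = 0.365), and Irf7, a transcription factor of the response, stood at 0.74 at week 5 (adjusted p = 0.679). Of 13 class I antigen presentation genes 0 passed at week 5, and H2-D1, a class I heavy chain, stood at 0.46 after 1.12 at week 1.

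The groups above were also read in the earlier weeks. The PPARalpha list had medians of 0.65, 0.47 and 0.68 at weeks 1, 3 and 5. Heat shock genes had medians of -0.14, -0.63 and -0.12, and Hspa1b stood at -1.20, -3.92 and -1.52. Collagens had medians of -0.17, -0.55 and -0.41, and Col3a1 stood at -0.08, -1.48 and -1.15. Nppb stood at 0.93, -0.09 and 1.09, with the trained pair of week 3 at -0.93 and the sedentary pair at 0.74. Mthfd2 stood at 0.21, 1.16 and 1.79, where week 3 held 2.26 in the sedentary and 0.06 in the trained pair, so the sedentary pair was no higher at week 5 (1.76). Dbp stood at -0.08, -0.31 and -1.98, with pairs of opposite sign in weeks 1 and 3. For Mthfd2, Dbp and Nppb the step to week 5 was not past the threshold of the test above.

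**Figure D4:**
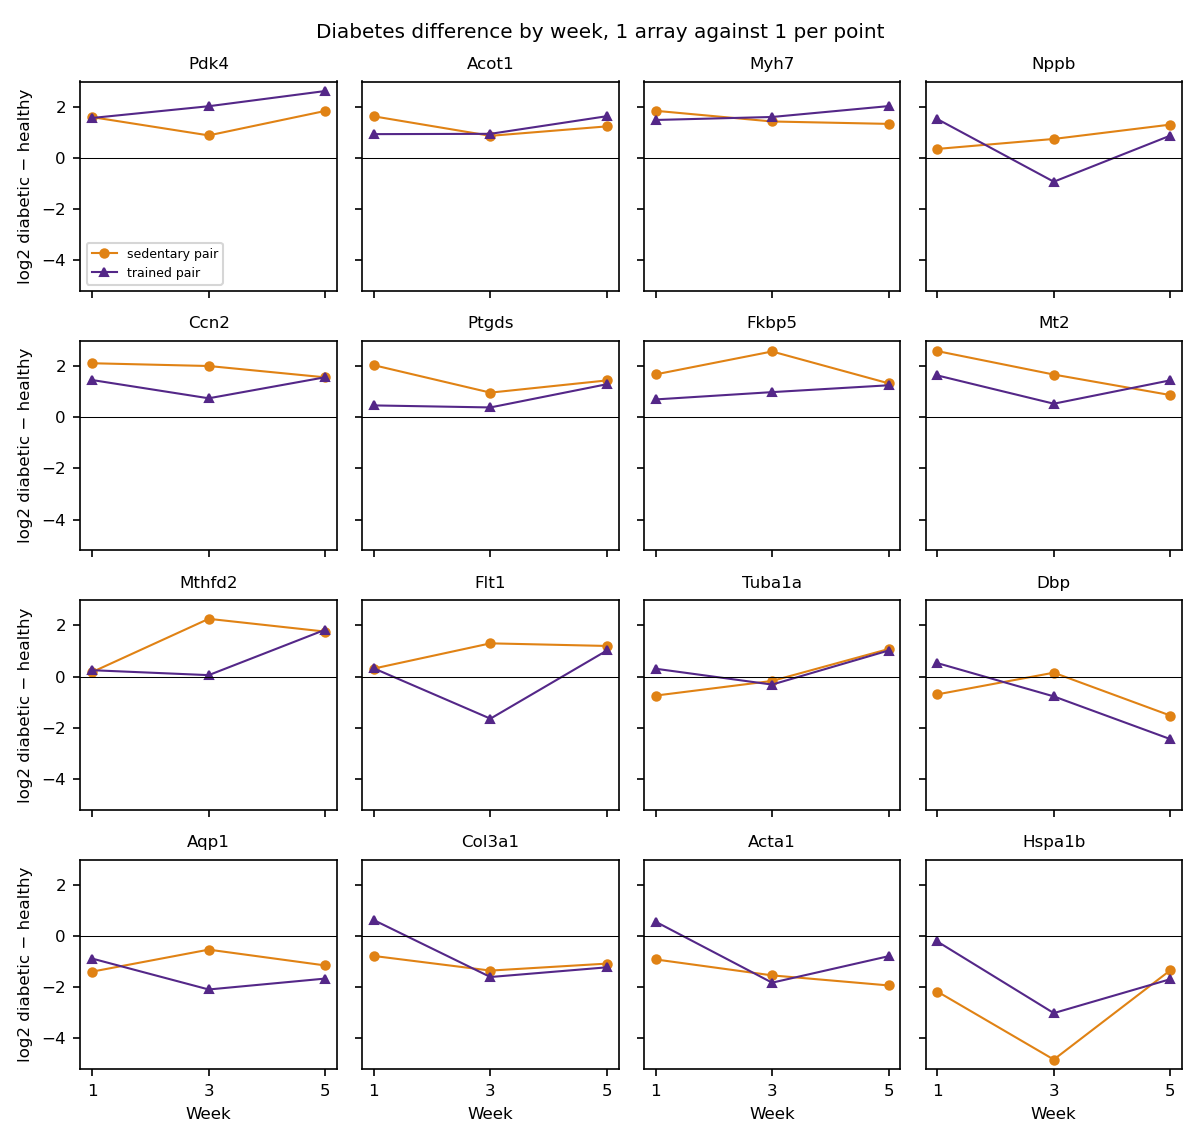
Log2 difference of diabetic minus healthy at weeks 1, 3 and 5 for 16 genes, in the sedentary pair (orange circles) and the trained pair (purple triangles), 1 array against 1 per point and all panels on 1 scale. Pdk4, Acot1, Myh7, Ccn2 and Fkbp5 lie above 0 in all 6 pairs, Aqp1 and Hspa1b lie below 0 in all 6, and Mthfd2, Tuba1a and Dbp lie near 0 in both pairs of week 1 (Mthfd2) or differ in sign there (Tuba1a and Dbp).

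Across all tested probe sets the sedentary and trained differences were only loosely alike. They had the same sign in 4062 of 7453 (54.5%) and correlated over probe sets at r = 0.15; the points share arrays run together and are not independent. Diabetic signals were at least 2-fold higher in both pairs in 32 probe sets (0.429%), of which 15 passed, and at least 2-fold lower in both in 20 (0.268%), of which 9 passed. Opposite differences of at least 2-fold were seen in 22 (0.295%). With 1 array for each combination of diabetes and training, a difference between sedentary and trained hearts in their response to diabetes could not be tested. Among genes that passed, the pairs were close for Ccn2, Txnip, Fkbp4 (-0.71 and -0.68) and H3c14 (-1.25 and -1.27). They were farther apart for Pdk4, for Acta1 and for Dbp (-1.52 and -2.44).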

How the data were processed

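Heart RNA of 12 pools of 5 mice was hybridised to 1 array each. The deposited values are MAS5 signals, a linear intensity per probe set, per the labels and the submitters' processing notes (MAS5's version is not given in the sources used here). The values showed that the authors' signals had been scaled to a trimmed mean of 50.03 to 50.04 per array. Depth has no meaning for arrays, and their number limits the precision.

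Of 12488 probe sets, 66 array controls were left out. Of the other 12422, GEO's platform table gave 1 gene symbol to 10833 (10817 brought up to date through the gene ID), several to 396 and none to 1193. Signals under 4.1 (the 20th percentile) were raised to it, log2 was taken, and the dimmest 40% by mean over the 4 arrays of week 5 were dropped (a geometric mean signal under 10.3), which left 7453 probe sets of 5663 genes. Differences are of these log2 values. limma 3.58.1 in R 4.3.3 fitted diabetes with training state as the block, with eBayes and a trend of spread with signal, and Benjamini-Hochberg adjustment over all 7453 (1 residual and 8.57 prior degrees of freedom). The pairing comes from training state, a factor of the design; deviations within pairs correlated at r = 0.13. For week 5 minus the mean of weeks 1 and 3, all 12 arrays were fitted with training within week (3 residual degrees of freedom).

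Named were up to 15 genes per direction that passed, ranked by size (then those highest by the smaller of both pair differences), up to 4 members per list and every one that passed, 5 per direction of smallest p for week 5 against earlier weeks, and up to 5 per direction with opposite pair differences. A list counts each gene once, by its brightest probe set. Members, the 46 lists and the tests were chosen with earlier results of these data known. Alternatives were other floors, filters, scalings, spread models, array sets and each array left out. Motifs were searched in RefSeq promoters, 250 bases before to 50 after each gene start.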

Additional observations from a re-analysis of the deposited data

Results flagged for a closer look

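In 22 of 7453 probe sets (0.295%) the sedentary and the trained pair of week 5 differed by at least 2-fold in opposite directions. Given here are 9 named genes, at most 5 per direction by the naming rule, so they do not count how the 22 divide. Each value is 1 array against 1, and the difference between pairs was not tested. In 5 of the 9 genes the sedentary diabetic array was above its healthy partner and the trained one below. Cd70, a ligand that stimulates T cells, differed by 2.71 in the sedentary and -2.08 in the trained pair, with signals of 6.1 and 23.7 in healthy and 39.8 and 5.6 in diabetic hearts. H2-T18, a non-classical class I molecule with close relatives, differed by 2.61 and -1.46 (9.5 and 69.3 against 58.1 and 25.2). Ada, which breaks down adenosine, differed by 1.27 and -1.27 (with 68.2 in the healthy trained and 28.3 in the diabetic trained pool). In these 3 genes training went with a higher signal in healthy pools and a lower one in diabetic pools. Sprr1a, a stress-induced cornified envelope protein, differed by 1.36 and -1.77, and Ifna9, an interferon alpha gene of a family alike in sequence, by 1.35 and -1.23, all at signals of 4.8 to 24.8.

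The other 4 genes given here went the opposite way. Myt1l, a neuronal transcription factor, differed by -2.05 in the sedentary and 2.21 in the trained pair (28.6 and 5.9 against 6.9 and 27.4), and Tanc1, a postsynaptic scaffold protein, by -2.14 and 1.91 (19.8 and 7.5 against 4.5 and 28.2). Degs2, a sphingolipid hydroxylase, differed by -1.34 and 1.34. Inpp5b, an inositol phosphatase, differed by -1.02 and 1.34, while its second probe set differed by -0.26 over both pairs. In all but Ada at least 1 of the 4 signals lay under 13.3, that of the brightest bacterial or yeast control.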

How the results depend on the processing

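The count of 43 probe sets depended on the fit. With no replicate block, that is without training state as the pairing of arrays, 5 passed. The week 5 effect in a fit of all 12 arrays gave 0 with training within week (232 at an unadjusted p under 0.05), and 2 (Pdk4 and Myh7) with 1 training effect for all weeks. Without the diabetic trained array of week 3 it gave 3, and a fit of the 8 arrays of weeks 1 and 5, chosen after seeing the data, also gave 3 (Pdk4, Myh7 and Ccn2 in both). Without the filter 0 passed, without the trend 0, and with arrays centred on their medians 13 (9 higher and 4 lower). Leaving out 1 array, with the lone sample assumed to vary like the other group, gave 0 to 32, namely 21 and 32 without the healthy sedentary or healthy trained array and 0 without either diabetic array. The fits with 1 array left out set the remaining array against both arrays of the other group, without the pairing by training state. Many of the probe sets that passed without a healthy array were not among the 43. Their counts therefore do not tell how many of the 43 were kept. Floors of 10 and 1, the stricter filter, quantile scaling and robust eBayes gave 36, 43, 43, 42 and 42. For week 5 minus the earlier weeks the count was 0 in every alternative except 1 each without the healthy sedentary or the diabetic sedentary array of week 3. Signs turned in Irf7 (0.74 in all 4 arrays), Gbp3 and Scd1, which had not passed. These 3 are examples and not a count of all genes whose sign turned. With 1 array left out, Irf7 ranged from -0.0857 to 1.56 (lowest without the healthy sedentary array), Gbp3 from -0.121 to 0.111 and Scd1 from -0.568 to 0.12 (highest without the diabetic sedentary array). Gbp3 was at 0.0111 under quantile scaling and 0.0177 under median centring. Where a count moved, the cause was not tested. Signals near 13.3, the brightest bacterial or yeast control, limit folds of dim genes such as Dbp.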

Other observations

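Probe sets without a single gene symbol also passed at week 5. One unnamed probe set read 350.1 and 261.9 in healthy and 615.5 and 690.7 in diabetic hearts (1.11 by limma on the log2 scale), and another read 17.1 and 31.8 against 59.1 and 86.7 (1.62). One that was lower read 682.6 and 600.6 against 255.0 and 381.0 (-1.04). Healthy and diabetic arrays did not overlap in any of these 3 probe sets. A probe set that names several genes read 75.4 and 46.5 against 23.3 and 20.6 (-1.43).

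Haemoglobin, a gauge of blood left in the heart, was level: Hba-a1 read 2103.4 and 2270.7 in healthy and 2125.6 and 2228.3 in diabetic hearts (-0.01). Of 22 autophagy genes 0 passed, and Atg7, an enzyme of autophagosome formation, read 21.1 and 15.5 against 6.2 and 14.3 (-0.94, adjusted p = 0.569 by limma). Of 14 apoptosis genes 0 passed, and the death receptor Fas read 9.5 and 10.7 against 16.3 and 27.9 (1.08, adjusted p = 0.327 by limma). The median of 17 immediate early genes was -0.01, with 0 that passed.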
